A study of Macaca mulatta with 136 samples.

Results

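The change in gene expression from the nasal location to the fovea was compared between neural retina and RPE/choroid, so that each gene was asked whether its foveal change differed between the tissues. The comparison used 16 of the 32 libraries of the series, every library taken at the fovea/macula or at the nasal location. They fell into 4 groups of 4 libraries, retina at the fovea, retina at the nasal location, RPE/choroid at the fovea and RPE/choroid at the nasal location. Each group held the right and the left eye of 2 adult rhesus macaques, labelled RM03 and RM04 and aged 13 and 18 years, and the sources used here do not say which animal had which age. Eyes 1 and 2 are the right and left eye of RM03, and eyes 3 and 4 those of RM04. The tissue came from punches with a diameter of 2 mm taken from eyes enucleated after death, and RNA was accepted above an RNA integrity number of 6.5. Libraries were selected for poly-A RNA and every one was sequenced on 5 lanes of the same 2 flow cells.

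The fovea is the central pit of the primate macula, where cones are packed without rods and each cone feeds its own ganglion cell, so that ganglion cell bodies pile up around it. The nasal retina lies on the side of the optic nerve and holds many rods, and during development the nasal and temporal sides of the eye are set apart by patterning transcription factors. The retinal pigment epithelium (RPE) is a single pigmented layer that recycles the visual chromophore and takes up shed photoreceptor tips, and the choroid beneath it is a vascular bed with smooth muscle, fibroblasts, melanocytes, nerves and immune cells. An RPE/choroid punch therefore mixes many cell types, and in such bulk samples fewer cells of a type and less RNA per cell cannot be told apart.

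Library totals ranged from 45212889 to 64466280 estimated counts, with group medians of 56209216 and 58753260 in retina at the fovea and the nasal location and of 49285116 and 50578440 in RPE/choroid. Replicate libraries of a group differed by 4.5 to 47.9 times the variance that counting alone gives (median 25.1 over 24 pairs), so that their spread exceeded counting noise in every pair. The pairs include eyes of different animals, so these ratios also hold the animal difference that the fit takes out as a covariate. The 4 eyes come from only 2 animals. The p-values of the edgeR fit measure the spread between libraries that is left after the group and the animal. That fit does not pair the libraries of an eye, and fits that do are given below.

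RPE and melanin genes were higher in RPE/choroid and rod, cone and ganglion cell markers in retina, each as a summed list. The summed level of 8 RPE markers was 8678 to 20050 CPM (counts scaled to library size) in the RPE/choroid libraries and 374 to 1371 CPM in the retina libraries. For 11 melanin genes the sums were 5326 to 7267 CPM and 60.1 to 75.7 CPM. For 9 rod markers, the 4 retina libraries at the fovea held 3942 to 4534 CPM and the 4 at the nasal location 14890 to 17100 CPM. The same rod markers summed to 57.5, 49.4, 529 and 130 CPM in RPE/choroid at the fovea of eyes 1 to 4, and to between 70.4 and 180 CPM at the nasal location. The RPE/choroid library of eye 3 at the fovea thus stood apart in rod marker RNA. The main counts and those of some gene lists are given with and without this library below, and those of the other lists only with it. Glial markers (7 genes) summed to 986 to 1306 CPM in retina at the fovea and 2281 to 2669 CPM at the nasal location. In RPE/choroid their sums were 2643 to 3099 CPM and 2362 to 2766 CPM, so that the tissues overlapped only at the nasal location. Most of the RPE/choroid sum was VIM, which is also a gene of mesenchymal cells. Ganglion cell markers (13 genes) summed to 10400 to 12310 CPM in retina at the fovea and 2364 to 2669 CPM at the nasal location. In RPE/choroid their sums were 303 to 429 CPM and 233 to 290 CPM, again without overlap between the locations. Most of this RPE/choroid sum was RBPMS, whose own change there was not called (adjusted p = 0.288, edgeR, Benjamini-Hochberg).

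**Figure D1:**
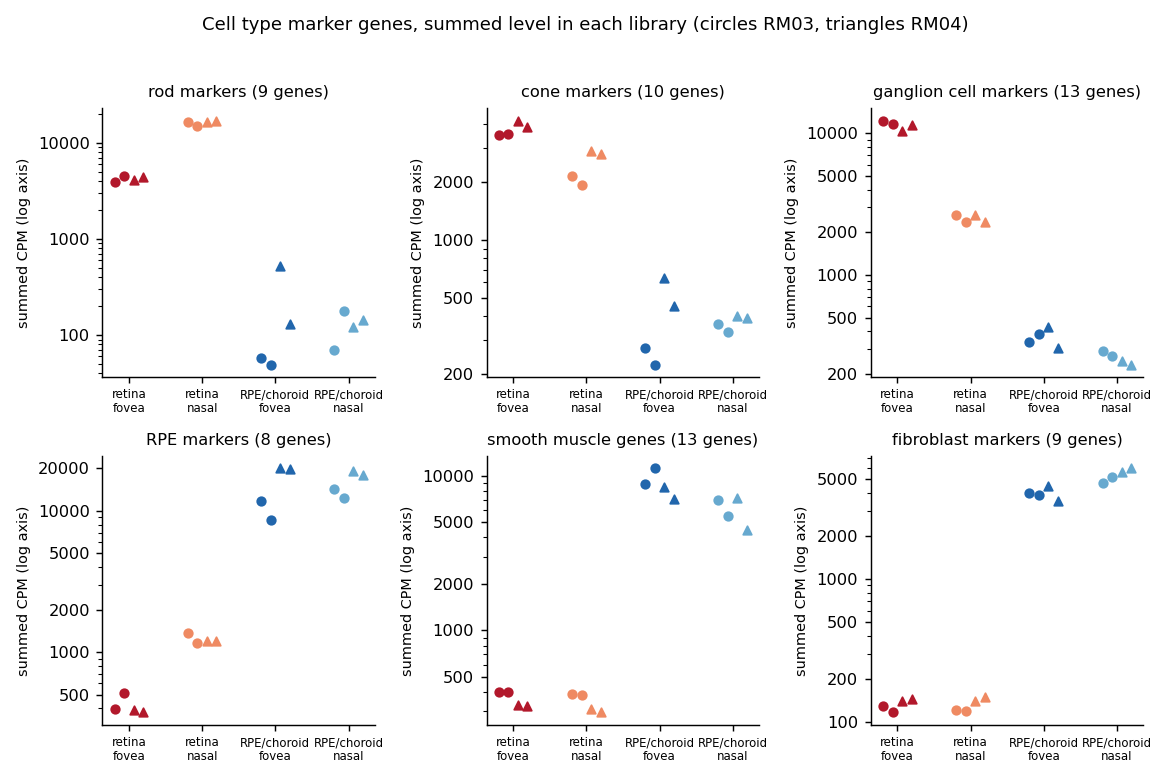
Summed level of 6 lists of cell type markers in each of the 16 libraries, in CPM on log axes, by tissue and location; circles are the 2 eyes of RM03 and triangles those of RM04. Rod markers of the RPE/choroid library of eye 3 at the fovea reach 529 CPM, above the other 7 RPE/choroid libraries. The summed ganglion cell markers are higher at the fovea in both tissues, and most of their RPE/choroid sum is RBPMS.

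The foveal change differed between the tissues for a large share of the genes, and in most of these the retina change was the larger. Of 15990 genes tested, 4736 (29.6%) were called for the tissue difference, that is for the retina log2 change from the nasal location to the fovea minus the RPE/choroid log2 change (edgeR quasi-likelihood test, Benjamini-Hochberg adjusted p under 0.05). The retina change lay above the RPE/choroid change in 2197 of them (13.7% of genes tested) and below it in 2539 (15.9%). This split was not stable: 46.4% of the calls were positive, against 52.3% when each tissue was normalized by itself, 56.5% without the RPE/choroid library of eye 3 at the fovea (4363 calls) and 56.7%, 57.4% and 58.6% without eye 1, 3 or 4. In the same fit, retina alone differed between the locations in 7243 genes (45.3%), of which 3236 (20.2%) were higher at the fovea. RPE/choroid differed in 304 genes (1.90%), of which 170 (1.06%) were higher at the fovea and 134 (0.838%) at the nasal location, with 3058 genes (19.1%) at an unadjusted p under 0.05. Without the RPE/choroid library of eye 3 at the fovea, 176 genes were called in RPE/choroid.

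The size of the changes followed the same order. The median absolute log2 change was 0.375 in retina (median standard error 0.144) and 0.16 in RPE/choroid (median standard error 0.143). Among the 4736 genes, the absolute change in retina was over 2 times that in RPE/choroid in 3801 (80.3%), and the reverse held in 194 (4.10%). The tissues had opposite signs in 3037 genes (64.1%). Both changes were called in the same direction in 46 genes (0.288% of genes tested) and in opposite directions in 68 (0.425%). A further 348 genes passed the test of the difference although neither tissue change was called. The share of calls varied little with the tissue that expressed a gene more. Calls made up 28.7% of the 2813 genes at least 4 times higher in RPE/choroid, 28.8% of the 1937 genes at least 4 times higher in retina and 30% of the other 11240. The direction did vary, with 618 of 808 calls negative among the genes higher in RPE/choroid and 255 of 558 among the genes higher in retina.

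**Figure D2:**
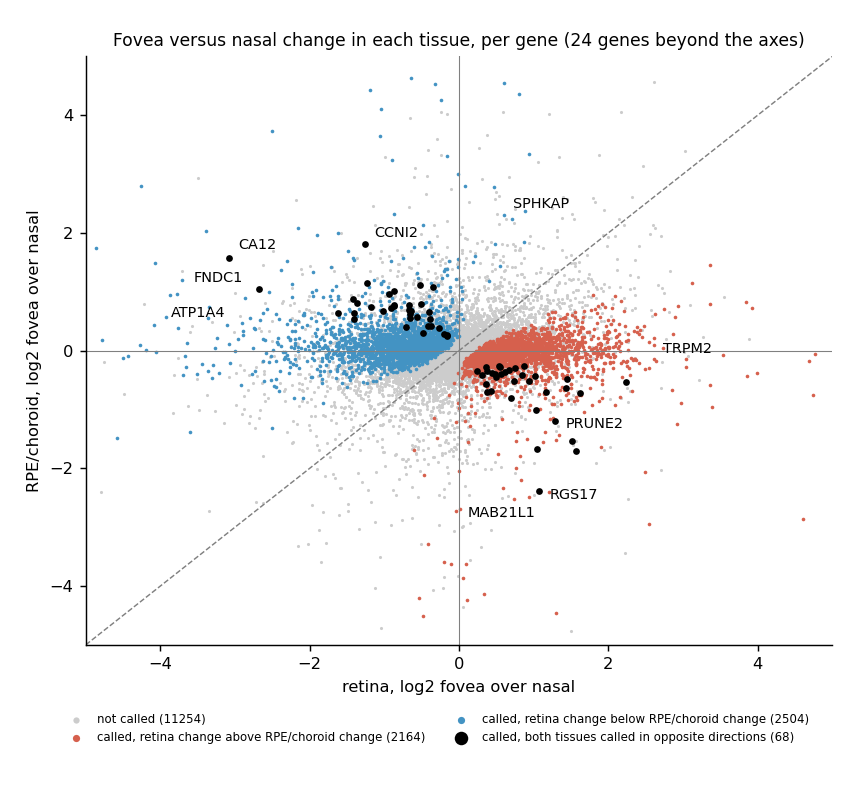
Log2 change from the nasal location to the fovea in retina (x axis) and in RPE/choroid (y axis) for each gene tested, with genes called for the tissue difference in red or blue by direction and the 68 genes called in opposite directions in both tissues in black; the dashed line marks equal changes and 24 genes lie beyond the axes. The cloud of called genes is stretched along the x axis, where the retina changed and the RPE/choroid stayed near 0.

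The animals were also fitted one by one. Fitted alone, RM03 gave 2644 called genes and RM04 4826 among the 15715 genes tested in both. Of these calls, 95.2% and 91% had the same sign in the other animal, beside 72.8% of all genes. Called in both animals with the same sign were 1970 genes, 74.5% of the RM03 calls and 40.8% of the RM04 calls, and 9 were called with opposite signs. The calls leaned in different directions, with 59.2% positive in RM03 and 46.6% in RM04. A difference of the same sign in 4 of 4 eyes was found in 47.2% of all genes and in 4560 of the 4736, which were called on these same eyes.

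Among the abundant genes with the most positive tissue differences, TRPM2, TPBG and ANGPTL2 rose at the fovea in retina, with no RPE/choroid change called. MAB21L1 was also among them but changed in RPE/choroid and not in retina, and is given below. TRPM2, a calcium-permeable channel gated by ADP-ribose and oxidative stress, had 83.3, 71.1, 86.5 and 92.7 CPM in retina at the fovea of eyes 1 to 4 and 10.3, 10.97, 16.9 and 16.6 CPM at the nasal location. In RPE/choroid the 8 libraries lay between 16.3 and 25.2 CPM, and the locations overlapped. The tissue difference was 2.76 on the log2 scale, or 6.76-fold (standard error 0.24, adjusted p = 2.49e-06, edgeR, Benjamini-Hochberg). TPBG, a leucine-rich glycoprotein of the cell surface that dampens WNT signalling, had 11.7 to 13.4 CPM in retina at the fovea and 1.82 to 3.37 CPM at the nasal location. Its RPE/choroid levels, 26.8 to 52.5 CPM and 30.7 to 57.4 CPM, followed the animal and not the location, and the difference was 2.498 (standard error 0.18, adjusted p = 3.99e-07, same test). ANGPTL2, a secreted angiopoietin-like protein, had a difference of 2.70 and rose 4.88-fold in retina, with no overlap between the locations.

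KIF5C and NDST4 met the same rule with a less certain size. KIF5C, a neuronal kinesin, had 450 to 534 CPM in retina at the fovea and 210 to 251 CPM at the nasal location. In RPE/choroid it had 3.94, 4.78, 26.6 and 30.7 CPM at the fovea of eyes 1 to 4 and 8.53, 14.7, 86.3 and 90.5 CPM at the nasal location. Every eye was higher at the nasal location in RPE/choroid, but the animals differed more than the locations did, and neither tissue change was called (adjusted p = 0.101 in retina and 0.15 in RPE/choroid, edgeR, Benjamini-Hochberg). Its tissue difference of 2.69 (adjusted p = 0.0162, same test) was not called without eye 2 (adjusted p = 0.0678) or without eye 3 (adjusted p = 0.0527, same test). NDST4, an enzyme that sulfates heparan chains, had a difference of 2.57 (adjusted p = 0.00335, same test) and its RPE/choroid level also followed the animal, from 4.82 to 10.1 CPM in RM03 and from 29.2 to 38.3 CPM in RM04.

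Among the most negative differences, retina was lower at the fovea and RPE/choroid stayed or rose. CA12, a carbonic anhydrase on the cell surface that handles bicarbonate and protons, had 1.39, 2.996, 2.75 and 2.18 CPM in retina at the fovea and 18.6, 20.2, 20.8 and 19.6 CPM at the nasal location. In RPE/choroid the order was turned around, with 129, 114, 146 and 168 CPM at the fovea and 54.9, 47.7, 46.4 and 37.7 CPM at the nasal location. No library of either tissue overlapped between the locations. CA12 fell 8.46-fold in retina and rose 2.97-fold in RPE/choroid at the fovea, a tissue difference of -4.65 (standard error 0.26, adjusted p = 7.63e-08, edgeR, Benjamini-Hochberg).

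ATP1A4, a catalytic subunit of the sodium pump, had 7.51 to 11.7 CPM in retina at the fovea and 113 to 142 CPM at the nasal location. RPE/choroid held 115 to 142 CPM at the fovea and 59.6 to 146 CPM at the nasal location, so that the foveal retina alone was low. The difference was -4.14 (standard error 0.27, adjusted p = 2.3e-07, edgeR, Benjamini-Hochberg). SLC26A7, an anion exchanger, had 0.745 to 1.13 CPM in foveal retina and 11.8 to 13.03 CPM in nasal retina, beside 29.9 to 60.97 CPM in the 8 RPE/choroid libraries. PDK4, which restrains pyruvate entry into the citric acid cycle, had a difference of -3.45 and FLNC, an actin-binding filamin of muscle, one of -3.54. In both, retina fell at the fovea (9.45-fold and 8.65-fold) and the RPE/choroid change was not called.

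**Figure D3:**
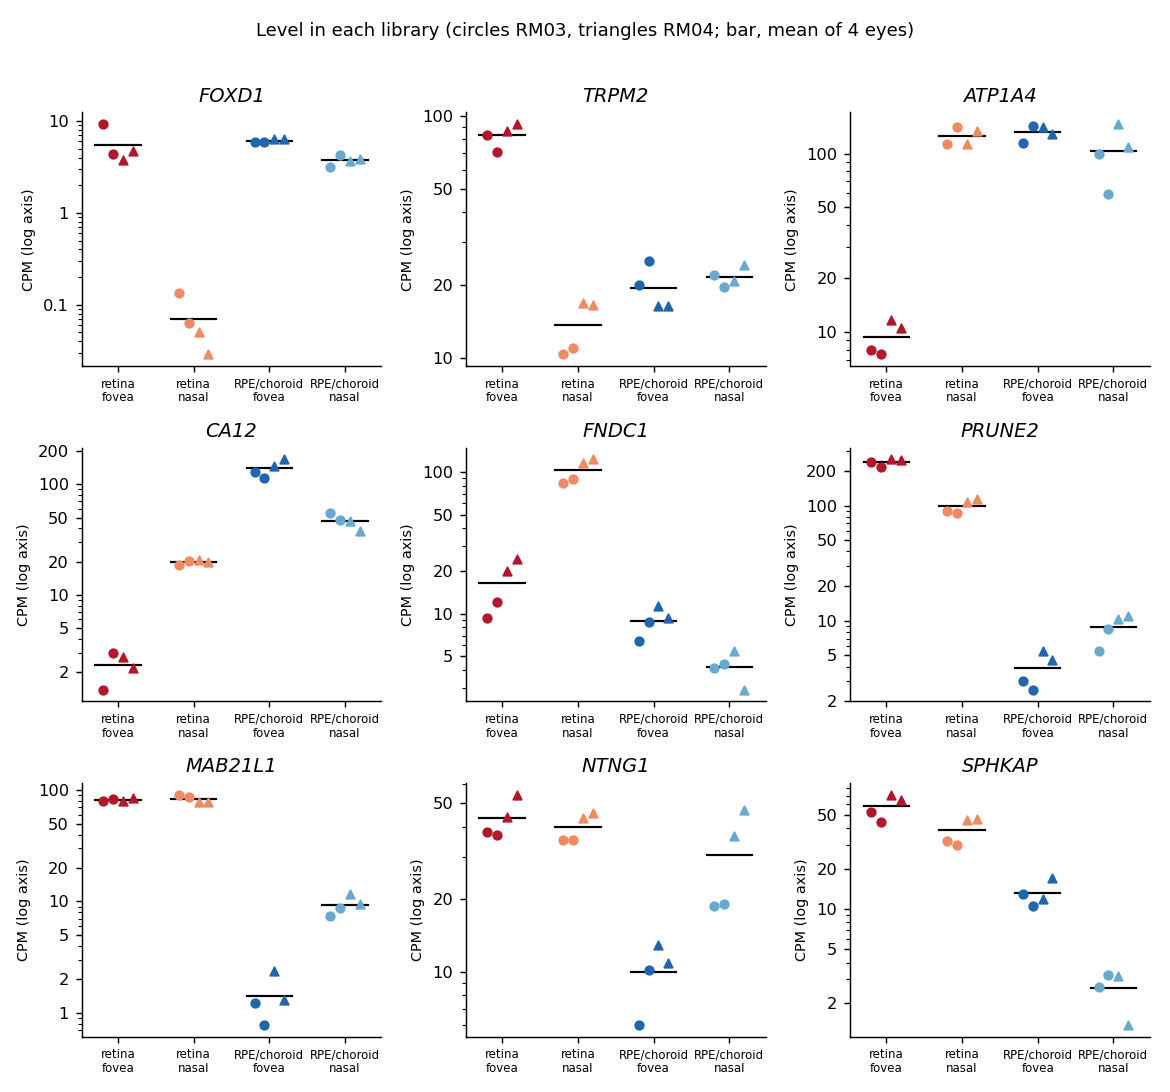
Level of 9 genes in each of the 16 libraries, in CPM on log axes, by tissue and location; circles are the 2 eyes of RM03, triangles those of RM04, and bars the mean of 4 eyes. FOXD1, TRPM2 and ATP1A4 change between the locations in retina, CA12, FNDC1 and PRUNE2 in opposite directions in the tissues, and MAB21L1, NTNG1 and SPHKAP mainly in RPE/choroid.

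In 35 of the 68 genes with opposite changes, RPE/choroid was higher and retina lower at the fovea. FNDC1, a secreted fibronectin-domain protein, had 9.37, 12.2, 20.1 and 24.4 CPM in retina at the fovea and 83.5, 88.7, 115 and 123 CPM at the nasal location. In RPE/choroid it had 6.45, 8.76, 11.3 and 9.36 CPM at the fovea and 4.17, 4.40, 5.46 and 2.91 CPM at the nasal location, without overlap. Its difference was -3.72 (adjusted p = 1.38e-06, edgeR, Benjamini-Hochberg). CCNI2, a cyclin-like gene, rose 3.52-fold in RPE/choroid and fell 2.40-fold in retina, from levels of 4.81 ± 1.14 against 1.36 ± 0.292 CPM and 0.931 ± 0.173 against 2.22 ± 0.339 CPM (SD, n = 4 eyes). SDK1, an adhesion molecule of synaptic layers, had 16.8 to 23.4 CPM in RPE/choroid at the fovea and 9.82 to 14.1 CPM at the nasal location, and 4.03 to 6.25 CPM against 11.9 to 15.3 CPM in retina. PPEF2, a photoreceptor phosphatase, and FJX1, a secreted regulator of growth, completed this group with differences of -2.39 and -1.90. FJX1 was low in retina, at means of 0.254 CPM at the fovea and 0.457 CPM at the nasal location (scaled together with the perimacular libraries).

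In the other 33 genes, retina was higher and RPE/choroid lower at the fovea. PRUNE2, a protein of neurons and glia, had 241, 216, 252 and 249 CPM in retina at the fovea and 90.4, 85.4, 108 and 113 CPM at the nasal location. RPE/choroid held 2.98, 2.52, 5.49 and 4.56 CPM at the fovea and 5.44, 8.46, 10.3 and 10.9 CPM at the nasal location. The RPE/choroid ranges overlapped by a little, since eye 3 at the fovea lay above eye 1 at the nasal location, but every eye had the same direction. RGS17, a regulator of G protein signalling, rose 2.10-fold in retina and fell 5.25-fold in RPE/choroid, at levels of at most 1.28 CPM in every library. VWDE, SERTM1 and MISP were among the others with the largest opposite changes, with tissue differences of 2.71, 2.05 and 3.27. MISP was low in RPE/choroid, at means of 0.11 CPM at the fovea and 0.35 CPM at the nasal location (scaled together with the perimacular libraries). MISP encodes an actin-bundling protein of the mitotic spindle.

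The RPE/choroid side of these opposite changes was the less firm one. When the eye was fitted as a block, the tissue differences of the genes named for opposite changes were still called, but the RPE/choroid change of FNDC1 (adjusted p = 0.0506), FJX1 (0.0653), PPEF2 (0.0806), MISP (0.0779) and SERTM1 (0.0579) was not (edgeR, Benjamini-Hochberg). The number of genes with opposite changes went from 68 to 32 with the block, and to 35 without the RPE/choroid library of eye 3 at the fovea. The RPE/choroid changes of these genes also missed the threshold without that library, where the highest adjusted p was 0.0903, for PPEF2.

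A smaller set of genes changed mainly in RPE/choroid. MAB21L1, a gene needed for lens and eye development, had 80.8, 83.8, 79.7 and 84.3 CPM in retina at the fovea and 91.3, 87.4, 78.9 and 77.9 CPM at the nasal location. In RPE/choroid it had 1.21, 0.775, 2.36 and 1.29 CPM at the fovea and 7.40, 8.70, 11.7 and 9.41 CPM at the nasal location. The retina values overlapped, whereas each RPE/choroid library at the nasal location was over every one at the fovea. MAB21L1 fell 6.63-fold in RPE/choroid at the fovea (adjusted p = 5.77e-05, edgeR, Benjamini-Hochberg) and its tissue difference was 2.69 (adjusted p = 1.07e-05, same test). NTNG1, a netrin-like protein anchored to axon membranes, had 6.02, 10.2, 12.9 and 10.8 CPM in RPE/choroid at the fovea and 18.8, 19.01, 36.7 and 47.0 CPM at the nasal location, while its 8 retina libraries lay between 35.1 and 54.2 CPM. OGN, an extracellular proteoglycan of connective tissue, had 440 to 593 CPM in RPE/choroid at the fovea and 827 to 1066 CPM at the nasal location.

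ALDH1A3, which makes retinoic acid, had 42.9, 47.2, 92.9 and 80.3 CPM in RPE/choroid at the fovea and 75.2, 83.1, 236 and 258 CPM at the nasal location. Every eye was higher at the nasal location, RM04 was higher than RM03 at both, and in retina the level was 3.98 to 8.07 CPM. Its tissue difference was 1.18 (adjusted p = 0.0225, edgeR, Benjamini-Hochberg). AGBL4 and PRSS12 behaved likewise, with RPE/choroid changes of -1.14 and -0.98 and retina changes of -0.34 and -0.00. AGBL4 shortens glutamate chains on tubulin, and PRSS12 is an extracellular serine protease. The calls of this group were less stable than those of the genes led by the retina. The difference of OGN was lost with the eye as a block (adjusted p = 0.0559) and in each fit that left out 1 eye (adjusted p from 0.0562 to 0.114), and that of ALDH1A3 without eye 2 (0.088) or without eye 3 (0.058, edgeR, Benjamini-Hochberg). Blocked by eye, ALDH1A3 had an adjusted p of 0.0521 for its RPE/choroid change (same test).

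The genes led by a higher RPE/choroid level at the fovea included genes of neurons and photoreceptors. SPHKAP, an anchoring protein for protein kinase A in neurons, had 12.9, 10.5, 11.9 and 17.1 CPM in RPE/choroid at the fovea and 2.63, 3.22, 3.19 and 1.37 CPM at the nasal location. In retina it was 44.6 to 71.0 CPM at the fovea and 29.95 to 47.0 CPM at the nasal location, and the ranges overlapped. SPHKAP thus rose in both tissues, by 2.30 in RPE/choroid (adjusted p = 0.000384) and by 0.60 in retina (adjusted p = 0.0311, edgeR, Benjamini-Hochberg), and the tissue difference was -1.70. KCNH5, a voltage-gated potassium channel, had 5.68 to 9.09 CPM in RPE/choroid at the fovea and 2.84 to 4.06 CPM at the nasal location, and was lower at the fovea in retina (9.69 to 12.3 against 14.5 to 16.8 CPM). TMEM59L, LRIT1, PITPNM3 and HHATL had RPE/choroid changes of 1.81, 1.39, 1.08 and 1.60. LRIT1 is a photoreceptor adhesion protein and PITPNM3 a lipid-transfer protein linked to cone disease. The difference of HHATL was not called without the RPE/choroid library of eye 3 at the fovea (adjusted p = 0.0536) or without eye 2, 3 or 4 (adjusted p from 0.0671 to 0.151, edgeR, Benjamini-Hochberg). Those of LRIT1 and PITPNM3 narrowly missed the threshold without eye 4 (adjusted p = 0.054 and 0.0539) and that of TMEM59L without eye 3 (adjusted p = 0.0514, same test).

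The levels of retinal markers in RPE/choroid were set beside these values. At the fovea, the level in RPE/choroid as a share of the same eye's retina had a median over the 13 ganglion cell markers of 0.245% to 1.59% in the 4 eyes, over the 9 rod markers of 0.517% to 11.6% and over the 10 cone markers of 1.60% to 6.27%. TMEM59L (2.06% to 5.36%), LRIT1 (2.39% to 8.54%) and HHATL (1.84% to 6.0%) lay in the range of the photoreceptor shares, and the part of retinal RNA in their change was not tested. SPHKAP at 16.7% to 26.3%, KCNH5 at 58.6% to 83.2% and PITPNM3 at 59.6% to 91.6% lay above all of these shares in every eye. At the nasal location the median share was 0.808% to 1.68% for ganglion cell markers, 0.162% to 1.06% for rod markers and 1.82% to 3.18% for cone markers. Each of these ranges overlapped the one at the fovea.

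Axis patterning genes were the list with the most calls above the RPE/choroid change relative to its size. Of 22 tested, 9 were called with the retina change above and 2 with it below, 50% in all beside 29.6% of all genes, and the median difference was 0.77 beside -0.05 over all genes. FOXD1, a transcription factor of the temporal retina, had 9.27, 4.37, 3.77 and 4.72 CPM in retina at the fovea. At the nasal location it had 0.135, 0.0642, 0.0501 and 0.0289 CPM, which were 8, 4, 3 and 2 counts. In RPE/choroid FOXD1 was 5.92 to 6.36 CPM at the fovea and 3.13 to 4.22 CPM at the nasal location, present at both. The tissue difference was 5.56 (standard error 0.45, adjusted p = 1.4e-06, edgeR, Benjamini-Hochberg).

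Of the 6 Iroquois genes tested, 5 rose at the foveal retina, all but IRX5 (adjusted p = 0.0727, edgeR, Benjamini-Hochberg), and 3 were called for the tissue difference. Over all genes, 20.2% rose at the foveal retina and 29.6% were called for the tissue difference. IRX2 had 26.3 to 42.2 CPM in retina at the fovea and 4.75 to 6.13 CPM at the nasal location, beside 11.3 to 29.6 CPM and 11.1 to 23.2 CPM in RPE/choroid. The tissue differences of IRX1, IRX2 and IRX3 were 2.08, 2.39 and 1.33 and were called, whereas those of IRX4, IRX5 and IRX6 (3.13, 0.69 and 0.86) were not. ZFHX4 had 120 to 144 CPM in retina at the fovea and 36.1 to 48.0 CPM at the nasal location, and 13.9 to 22.4 CPM against 21.2 to 34.9 CPM in RPE/choroid. Its changes of 1.62 and -0.73 were both called, giving a difference of 2.35 (adjusted p = 9.21e-06, edgeR, Benjamini-Hochberg), although the RPE/choroid change was lost with the eye as a block (adjusted p = 0.0766) and without the RPE/choroid library of eye 3 at the fovea (adjusted p = 0.116, same test).

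CYP26A1, which breaks down retinoic acid, had 12.1, 17.4, 17.4 and 16.6 CPM in retina at the fovea and 0.592, 0.545, 0.886 and 0.649 CPM at the nasal location. In RPE/choroid the animals stood apart, at 43.2 to 53.6 CPM in RM03 and 2.83 to 10.6 CPM in RM04, and the locations did not. The tissue difference was 4.86 (standard error 0.94, adjusted p = 0.00147, edgeR, Benjamini-Hochberg). TBX5, a T-box factor of the dorsal eye, had 2.30 to 10.4 CPM in foveal retina, 0.0507 to 0.981 CPM in nasal retina and at most 0.161 CPM in RPE/choroid, and its difference of 4.29 was not called without eye 2 (adjusted p = 0.084, edgeR, Benjamini-Hochberg). The 2 genes with the opposite sign were VAX2, a ventral eye factor, at -1.17, and BMP4, a dorsal signal, at -1.27, both lower at the foveal retina.

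Rod, cone and ganglion cell markers were called in 22.2%, 20% and 23.1%, near the 29.6% of all genes. Without the RPE/choroid library of eye 3 at the fovea the calls were 2 rod, 3 cone and 6 ganglion cell markers, with CNGA3, NEFL, NEFM and ELAVL4 gained (adjusted p = 0.00424, 0.0187, 0.026 and 0.00324, edgeR, Benjamini-Hochberg). Of 9 rod markers, 2 were called and both were negative, CNGB1 (a channel subunit, -2.19) and SLC24A1 (an ion exchanger, -1.71), although the median difference of the list was -2.41. The other 7 had standard errors of 0.92 to 1.24. For PDE6B, the rod phosphodiesterase, RPE/choroid at the fovea held 2.08, 1.66, 27.7 and 7.52 CPM, and the difference of -1.97 was not called (adjusted p = 0.128, edgeR, Benjamini-Hochberg). Of 10 cone markers, CNGB3 (0.89) and RXRG (0.83) were called. CNGB3, a cone channel subunit, was higher in RPE/choroid (292 ± 120 CPM at the fovea) than in retina (72.7 ± 19 CPM), unlike the other 9 cone markers, and whether reads of another gene reach its identifier was not tested. Its difference was not called without eye 2 (adjusted p = 0.0534) and that of RXRG not with the eye as a block (adjusted p = 0.0521) or without eye 1, 2 or 4 (adjusted p from 0.0771 to 0.141, edgeR, Benjamini-Hochberg).

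Of 13 ganglion cell markers, 12 rose at the fovea in retina and 3 in RPE/choroid (NEFM, NEFH and SNCG), beside 20.2% and 1.06% of all genes. For the tissue difference, 3 were called. These were THY1, a cell surface glycoprotein (1.69), RBPMS, an RNA-binding protein (1.86), and SNCG, a synuclein (0.84). THY1 had 584 to 746 CPM in retina at the fovea, 148 to 185 CPM at the nasal location and 54.0 to 72.5 CPM in RPE/choroid, and RBPMS had 145 to 263 CPM in RPE/choroid. The difference of SNCG was lost without eye 1 or without eye 2 (adjusted p = 0.0944 and 0.241, edgeR, Benjamini-Hochberg). The neurofilament genes NEFL, NEFM and NEFH changed by 2.41, 2.56 and 1.98 in retina whereas their log2 differences in RPE/choroid, at levels of at most 21.4 CPM on average, were 1.77, 1.98 and 1.78. The tissue differences of the 3 were not called (adjusted p = 0.496, 0.51 and 0.842, edgeR, Benjamini-Hochberg). Without the RPE/choroid library of eye 3 at the fovea, those of NEFL and NEFM were called, as given above, and the RPE/choroid changes of NEFM, NEFH and SNCG were not (adjusted p = 0.0522, 0.0866 and 0.0903). With the eye as a block, those of NEFM and NEFH were not called either (adjusted p = 0.0663 and 0.0847, same test). Bipolar cell markers gave 2 negative calls of 9, PRKCA and TRPM1 (3 without that library). Amacrine and horizontal cell markers gave 1 of 12, SLC6A9, which was not called without eye 3 (adjusted p = 0.059, same test). The called shares of these lists were 22.2% and 8.33%, beside 29.6% of all genes.

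The calls among genes of glia, of the visual cycle and of the RPE had the retina change below the RPE/choroid change. Of 17 visual cycle genes, 7 were negative and 0 positive (41.2%, beside 29.6% of all genes called and 15.9% negative). RDH10, a retinol dehydrogenase, had 19.8 to 23.5 CPM in retina at the fovea and 136 to 155 CPM at the nasal location. RPE/choroid held 173 to 454 CPM and 192 to 287 CPM, overlapping, and the difference was -3.10 (adjusted p = 8.61e-06, edgeR, Benjamini-Hochberg). ABCA4, the photoreceptor retinoid flippase mutated in Stargardt disease, had 927, 989, 968 and 993 CPM in retina at the fovea and 2607, 2452, 2509 and 2764 CPM at the nasal location. In RPE/choroid it had 285, 264, 507 and 445 CPM at the fovea and 240, 241, 238 and 224 CPM at the nasal location, so that the tissues moved apart and no library overlapped. The tissue difference of ABCA4 was -2.05 (adjusted p = 7.19e-06, same test). Its RPE/choroid change of 0.64 was not called with the eye as a block (adjusted p = 0.076) or without the RPE/choroid library of eye 3 at the fovea (adjusted p = 0.0823, same test).

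All 8 RPE markers were lower at the fovea in retina, beside 25.1% of all genes. None was called in RPE/choroid, where only 1.9% of all genes were. For the difference 5 were called (62.5%, beside 29.6% of all genes), or 3 without the RPE/choroid library of eye 3 at the fovea. RLBP1 and RGR, which are also genes of Müller glia, led them at -2.25 and -1.62, although RGR was not called without eye 3 or without eye 4 (adjusted p = 0.0502 and 0.0712). RPE65, the isomerase of the RPE, was not called for the difference (-0.85, adjusted p = 0.151, edgeR, Benjamini-Hochberg). Glial genes followed the same course, with 3 of 7 called and negative. VIM, an intermediate filament of Müller glia and of mesenchymal cells, had 144 to 224 CPM in retina at the fovea and 514 to 589 CPM at the nasal location, and 2192 to 2961 CPM in RPE/choroid. GFAP, the astrocyte filament, had a difference of -2.73, which was not called without eye 1, 3 or 4 (adjusted p from 0.0524 to 0.0659, edgeR, Benjamini-Hochberg). PAX2, another astrocyte marker, was at 0 in RPE/choroid at the fovea. Melanin genes were divided, with 3 positive (GPR143, RAB27A and MITF) and 4 negative (SLC45A2, RAB38, TYRP1 and SLC24A5) of 11. GPR143, a melanosome receptor, rose at the fovea in both tissues, by 1.91 in retina and 0.79 in RPE/choroid.

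Genes of the extracellular matrix were called mostly with the retina change below the RPE/choroid change. Of 49 matrix genes, 26 were called below and 2 above (LAMA4 and LAMC1), 57.1% beside 29.6% of all genes, with a median difference of -0.64. In retina 27 of the 49 were lower at the fovea and 5 higher, beside 25.1% and 20.2% of all genes. In RPE/choroid 1 was called, near the share of 1.9% of all genes. SPARC, a collagen-binding protein, had 50.4 ± 6.6 CPM in foveal retina and 153 ± 3.6 CPM in nasal retina, against 2590 ± 270 and 2110 ± 140 CPM in RPE/choroid (SD, n = 4 eyes). TNC, FBLN1, FBLN2 and COL11A1 had the largest differences, from -2.84 to -2.18. The 1 matrix gene called in RPE/choroid was POSTN, periostin, named after its values were seen. It rose from 1.88 ± 0.284 to 9.89 ± 2.24 CPM there (log2 change 2.38, adjusted p = 0.000891, edgeR, Benjamini-Hochberg) and more weakly in retina, from 0.811 ± 0.117 to 1.57 ± 0.781 CPM (0.89, adjusted p = 0.0188).

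Endothelial markers were called in 4 of 11, all negative, a share of 36.4% near the 29.6% of all genes, led by CLDN5, a tight junction protein (-2.68). CDH5, the cadherin of endothelial junctions and one of the 4, was not called with the eye as a block (adjusted p = 0.0702) or without the RPE/choroid library of eye 3 at the fovea (adjusted p = 0.115, edgeR, Benjamini-Hochberg). Smooth muscle genes were called in 6 negative and 1 positive of 13 (53.8%, beside 29.6% of all genes). Without the RPE/choroid library of eye 3 at the fovea, 4 were negative and 1 positive. ACTA2, smooth muscle actin, had 2539, 2899, 2395 and 1957 CPM in RPE/choroid at the fovea and 1807, 1361, 1777 and 954 CPM at the nasal location. In retina it had 6.28 to 8.22 CPM at the fovea and 12 to 15.5 CPM at the nasal location, so that it went down in retina and up in RPE/choroid without overlap in either. The tissue difference of ACTA2 was -1.64 (adjusted p = 0.000228, edgeR, Benjamini-Hochberg), and its RPE/choroid change was not called with the eye as a block (adjusted p = 0.072) or without the RPE/choroid library of eye 3 at the fovea (adjusted p = 0.0874, same test). The summed smooth muscle list in RPE/choroid was 7103 to 11150 CPM at the fovea and 4462 to 7132 CPM at the nasal location, and the fibroblast list 3515 to 4479 CPM and 4727 to 5944 CPM. OGN is itself a member of the fibroblast list. These sums moved with the location, and their part in the RPE/choroid changes of other choroidal genes was not tested. Fibroblast markers gave 1 call in each direction of 9, FBLN1 and OGN, Schwann cell markers 1 positive and 3 negative of 10, macrophage markers 1 negative of 11 (CSF1R) and erythrocyte genes 1 negative of 4 (HBB, not called without eye 1 or without eye 3, adjusted p = 0.104 and 0.131, edgeR, Benjamini-Hochberg). Lymphocyte and mast cell markers gave 0 calls of 10 by edgeR, with 3 at an unadjusted p under 0.05, which 39.7% of all genes reached.

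PMP2, a lipid-binding myelin protein of Schwann cells, had the largest positive difference of the genes named here at 5.71 (adjusted p = 0.000647, edgeR, Benjamini-Hochberg). In retina at the fovea it had 49.8 and 35.6 CPM in RM03 and 3.09 and 3.54 CPM in RM04, beside 0.217 to 0.534 CPM at the nasal location. The size thus belonged mostly to 1 animal, while the direction held in all 4 eyes, and in RPE/choroid PMP2 lay between 1.41 and 2.96 CPM at both locations.

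Signalling lists had calls in both directions. WNT genes gave 2 positive and 11 negative of 41, BMP genes 4 and 8 of 26, complement genes 1 and 5 of 21, and VEGF and angiopoietin genes 2 and 3 of 15. These are 31.7%, 46.2%, 28.6% and 33.3%, so that all but the BMP genes lay near the 29.6% of all genes, and without the RPE/choroid library of eye 3 at the fovea 4 complement genes were called. In retina 19 of the 41 WNT genes were lower at the fovea, beside 25.1% of all genes. Among these 19 were NDP, the norrin ligand, with its receptor FZD4 and its partners LRP5 and TSPAN12, and all 4 were called for the difference. They were named after their values were seen, and TSPAN12 was not called without the RPE/choroid library of eye 3 at the fovea (adjusted p = 0.0509, edgeR, Benjamini-Hochberg). TCF7, a WNT effector, ran the other way at 2.18. ID3, a BMP target, had -2.64, and ANGPT1 and NRP2, a TIE2 ligand and a semaphorin and VEGF co-receptor, had 1.61 and 1.64.

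Guidance and ephrin genes were called about as often on either side. Of 45 guidance genes 10 were positive and 13 negative (51.1%), and of 19 ephrin genes 5 and 5 (52.6%), beside 29.6% of all genes. In retina, EPHA4, EPHA5, EPHA7, EFNA1 and EFNA3 were higher at the fovea and EPHA2, EPHA3, EPHB3, EPHB4 and EFNB1 lower. No ephrin gene was called in RPE/choroid, where only 1.9% of all genes were. EFNA1, an ephrin ligand, had the largest ephrin difference at 2.03, from 8.45 ± 2.0 against 2.65 ± 0.36 CPM in retina and 13.6 ± 2.0 against 17.7 ± 1.2 CPM in RPE/choroid (SD, n = 4 eyes). SEMA3C, a repellent semaphorin, rose at the fovea in both tissues, from 0.995 to 1.72 CPM up to 10.9 to 13.4 CPM in retina and from 26.1 to 45.8 CPM up to 65.3 to 94.4 CPM in RPE/choroid. Its retina change of 3.12 exceeded the RPE/choroid change of 1.16, a difference of 1.97 (adjusted p = 9.26e-05, edgeR, Benjamini-Hochberg).

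Of 55 potassium channel genes, 3 were positive and 11 negative (25.5%), and of 41 transmitter receptor genes 6 and 3 (22%), shares near the 29.6% of all genes. Without the RPE/choroid library of eye 3 at the fovea, 5 potassium channel genes were positive and 7 negative, and 9 transmitter receptor genes were positive and 1 negative. KCNK5, an acid-sensitive background channel, was at 0.0162 to 0.0485 CPM in foveal retina, 1 to 3 counts per library, and at 0.727 to 1.19 CPM in nasal retina. In RPE/choroid it was 2.90 to 12.6 CPM without a change, and the difference was -4.97 (adjusted p = 4.58e-06, edgeR, Benjamini-Hochberg). KCNG4, a modifier subunit of potassium channels named after its values were seen, rose in RPE/choroid from 0.286 ± 0.21 to 2.87 ± 0.507 CPM, and in retina from 11.2 ± 0.955 to 21.5 ± 1.51 CPM (SD, n = 4 eyes). GABBR1, a metabotropic GABA receptor subunit, had 410 to 528 CPM in foveal retina, 136 to 201 CPM in nasal retina, and 57.8 to 98.1 CPM against 91.3 to 111 CPM in RPE/choroid, a difference of 1.93. Glycolysis genes gave 5 positive and 2 negative calls of 14, among them ALDOC, PFKM and the lactate transporter SLC16A3 on the positive side. Oxidative phosphorylation genes gave 5 and 2 of 36 with a median of 0.02, and immediate early genes 1 of 18, ATF3 at 1.52, which was not called without eye 1 or without eye 3 (adjusted p = 0.0898 and 0.0918, edgeR, Benjamini-Hochberg).

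**Figure D4:**
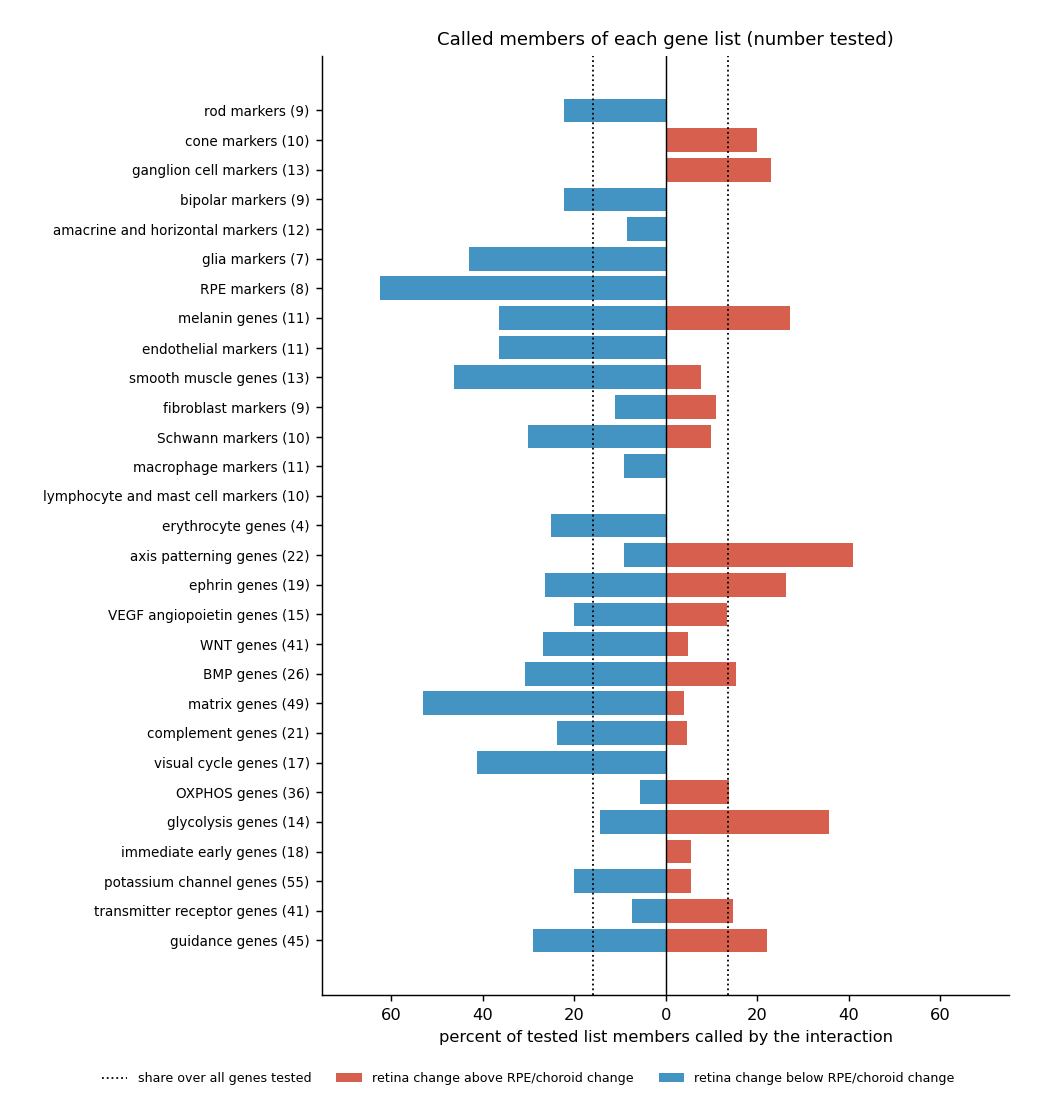
Share of the tested members of each of 29 gene lists that were called for the tissue difference, in percent, with the retina change above (right) or below (left) the RPE/choroid change; dotted lines mark the shares over all 15990 genes, 13.7% and 15.9%. Matrix, visual cycle, RPE and glial genes extend to the left and axis patterning genes to the right, whereas immune, amacrine and immediate early genes stay short.

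Of 27 genes listed from other comparisons of these animals, most of them named in the study's text, 10 were called positive, 7 negative and 10 not at all. The called share was 63%, beside 29.6% of all genes. The 27 genes are a partial list, were selected with these animals in view and are not independent evidence. The positive calls included the transcription factors EBF1 (1.997), EBF2 (2.03), MYC (1.38) and TWIST1 (1.76), besides IRX1, IRX2, ZFHX4, THY1 and HR. The negative calls were CXCL14 (-2.21), ABCA4, VIM, ACTA2, SULF1 (-1.31), GNG11 (-1.07) and TIMP3 (-0.87). HR and TWIST1 were not called without eye 1 or without eye 2 (adjusted p from 0.0578 to 0.148), nor HR without eye 3 or with the eye as a block (adjusted p = 0.0661 and 0.065), TWIST1 without eye 4 (adjusted p = 0.0615) and CXCL14 without eye 3 or without eye 4 (adjusted p = 0.0823 and 0.0786, edgeR, Benjamini-Hochberg). SULF1, a sulfatase that edits heparan sulfate, had 1783, 1778, 2548 and 2657 CPM in RPE/choroid at the fovea and 1507, 1635, 1332 and 1095 CPM at the nasal location, and 86.9 to 115 against 139 to 173 CPM in retina. It was higher at the fovea in RPE/choroid and lower in retina, with no overlap in either tissue, although the RPE/choroid change was not called with the eye as a block (adjusted p = 0.0826) or without the library of eye 3 at the fovea (adjusted p = 0.0997, edgeR, Benjamini-Hochberg). VEGFA, the vascular growth factor, had 211 to 462 CPM in RPE/choroid at the fovea and 155 to 254 CPM at the nasal location, and 176 to 250 against 117 to 194 CPM in retina. Its tissue difference was -0.28 with a standard error of 0.28 and was not called (adjusted p = 0.501, edgeR, Benjamini-Hochberg). PDE6B, NR2F1, IVNS1ABP, PMEL, S100B, WFDC1, EBF3, SHOX2 and POU4F2 were not called either.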

How the data were processed

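Poly-A RNA was sequenced as read pairs on an Illumina HiSeq. Per the labels and the study's methods, the authors quantified each lane with Salmon 0.13 against Mmul_8.0.1 and summarised transcripts to genes with tximport. The deposited column named TPM sums to far more than TPM can and was treated as length-scaled estimated counts, the scale that the study's methods name. Gene symbols are those of the files, and 1105 symbols that several identifiers share were treated as uncertain. Estimated counts were summed over the 5 lanes of each of 16 libraries and rounded. edgeR 4.0.16 (R 4.3.3, TMM, filterByExpr at a minimum count of 10, animal as covariate, quasi-likelihood test, Benjamini-Hochberg over 15990 genes at 0.05) tested the interaction of tissue and location and both tissue contrasts. CPM are TMM-scaled. The 22 alternatives included DESeq2 1.42.0 and limma 3.58.1, and 3 of them were added after the data were seen. Tables and figures used Python 3.11.15 with pandas 2.3.3 and matplotlib 3.10.9.

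Genes were named by rule: the 6 most positive and 6 most negative called differences among genes averaging 3 log2 CPM or more (prior count 2) with the same sign in 4 of 4 eyes, up to 6 of each sign with opposite called changes, 6 of each sign, under the same level and eye criteria, with an RPE/choroid change over 2 times that of retina, up to 4 called members of each gene list, and a list of genes from other comparisons of these animals. Members and lists were chosen with earlier results of these data known. Same-numbered libraries come from the same eye. Deviations from group means, over 1000 genes, correlated on average at 0.643 between the retina libraries of an eye and 0.559 between its RPE/choroid libraries, and at 0.27 across tissues. Fellow eyes gave 0.611, 0.562 and 0.27. On simulated counts for 15990 genes, the interaction test recovered 42% of 100 genes changed by 0.75 and 79% of 100 changed by 1.5 (log2), with 1.63% of its calls false. The simulated libraries were drawn independently with an animal effect shared by the tissues, and only well-counted genes were changed. Animal effects that differ between the tissues were not simulated, so these rates need not hold for the real counts. Some listed genes are not reported here.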

Additional observations from a re-analysis of the deposited data

Results flagged for a closer look

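The foveal change differed between neural retina and RPE/choroid in 4736 of 15990 genes by a test of the difference itself, which is the comparison described above. Of 192 groups of 4 libraries examined for a marker sum or a named gene that stood apart by Dixon's test, 5 did, all of them marker sums. The named genes were chosen on these same libraries, many for agreement between the eyes, so the count cannot be set against a chance level.

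In RPE/choroid at the fovea, eye 3 had a rod marker sum of 529.2 CPM. In RPE/choroid at the nasal location, the erythrocyte genes of eye 2 summed to 224.8 CPM, the lowest of its group. In retina at the fovea, the sum was 516.8 CPM for the RPE markers of eye 2, 64.04 CPM for the melanin genes of eye 3 and 41.7 CPM for the macrophage markers of eye 4.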

How the results depend on the processing

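The number of genes called for the tissue difference, 4736 by edgeR, was 5331 with DESeq2, 4708 with another scaling (RLE) and 4708 with limma-voom. The RPE/choroid calls (304) and the opposite calls (68) moved most. They were 1058 and 226 with DESeq2, 85 and 16 with no covariate, 996 and 241 with an animal effect in each tissue, 78 and 12 in a fit of all 32 libraries, and 179 and 33 on flow cell HLKJ7BBXX alone. With the eye as a block, which pairs the libraries of an eye, 4399 genes were called for the difference, 162 in RPE/choroid and 32 in opposite directions, and the call was lost for OGN, BMP5, RXRG, CDH5, KCNS1, LRAT, ERBB3, GRIK3, SFRP1 and HR. It changed no other call of a difference among the named genes. Limma on differences within each eye called 0 genes in RPE/choroid (2539 at an unadjusted p under 0.05, and 304 by edgeR after adjustment) and 0 in opposite directions, with 1576 negative differences, and 29 named genes lost the call of their difference, among them FOXD1, CYP26A1, PMP2, CA12 and SPHKAP (adjusted p = 0.302, 0.226, 0.295, 0.069 and 0.0561, limma). RM03 alone gave 2647 differences, 1080 of them negative, 4804 retina calls, 88 RPE/choroid calls and 19 opposite calls, and RM04 alone 1152 RPE/choroid calls and 305 opposite calls. The cause of these shifts was not tested.

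Leaving out 1 eye gave 2913 to 3827 differences, 1207 to 2036 of them negative, 29 to 164 RPE/choroid calls and 4 to 30 opposite calls, the lowest of each without eye 4. Without the RPE/choroid library of eye 3 at the fovea, an alternative chosen after seeing the data, the counts were 4363 differences, 176 RPE/choroid calls and 35 opposite calls. The sign turned only for named genes that were not called: POU4F2 (-0.02 on flow cell HLKMNBBXX, -1.11 in RM04, and -0.24 to 1.76 without 1 eye), PDE6B (0.36 in RM03), VEGFA (0.49 in RM03, and -0.58 to 0.05), EBF3 (-0.54 in RM04, and -0.33 to 1.55), PMEL (0.53 in RM04, and -0.37 to 0.21) and WFDC1 (-0.31 to 0.05). With 4 eyes of 2 animals, the spread between libraries, and not counting noise alone, limits small RPE/choroid changes.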

Other observations

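The perimacular libraries of the same eyes place some of these genes in relation to another location. Levels here were scaled over the fovea, perimacula and nasal libraries together, so they can differ slightly from those above. In retina, FOXD1 had 5.79 ± 2.65 CPM at the fovea, 4.65 ± 2.41 at the perimacula and 0.0697 ± 0.0461 at the nasal location (SD, n = 4 eyes), and the perimacula lay with the fovea. CYP26A1 had 16.6 ± 2.67, 1.34 ± 1.83 and 0.669 ± 0.152 CPM, and TRPM2 87.2 ± 8.81, 29.7 ± 13.95 and 13.7 ± 3.50 CPM, so that for these genes the perimacula lay nearer the nasal location. CA12 was intermediate at the perimacula in both tissues, at 10.5 ± 5.50 CPM in retina, between 2.44 ± 0.754 and 19.8 ± 1.00, and at 69.0 ± 16.2 CPM in RPE/choroid, between 140 ± 23.9 and 46.7 ± 6.85.

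In RPE/choroid, MAB21L1 had 1.42 ± 0.679 CPM at the fovea, 1.78 ± 0.4697 at the perimacula and 9.32 ± 1.86 at the nasal location, so that the perimacula lay near the fovea. SPHKAP had 13.1 ± 2.91, 23.9 ± 6.23 and 2.61 ± 0.886 CPM, highest at the perimacula. OGN had 520.0 ± 69.7, 633 ± 84.7 and 958 ± 102 CPM. PMP2 had 145 ± 205 CPM in RPE/choroid at the perimacula, where the SD exceeded the mean, beside 2.05 ± 0.660 at the fovea and 2.05 ± 0.615 at the nasal location. No test was run on these values.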
